A study of Mus musculus with 360 samples.

Results

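The 50 genes described here are genes of DNA replication and of mitosis, chosen by name from a fixed list. All 50 symbols were among the 24015 symbols of the tables. 22 of them serve the replication of DNA in S phase and the entry into it (the S list), 26 serve the G2 phase and mitosis (the G2/M list), and 2 are D cyclins, Ccnd1 and Ccnd2, which were kept apart because cells that do not divide transcribe them too. Reads were counted per gene in single mouse cells, from full-length cDNA without molecular identifiers, after a sort for CD51+;CD200+ cells, a gate taken by the study to hold skeletal stem cells and progenitors. The gate also left out cells positive for the blood markers CD45 and Ter119, for Tie2, CD105 and 6C3, and for Thy1.1 and Thy1.2. All cells came from wild-type CD-1 mice at postnatal day 3 (P3), with no treatment, from 4 sites. These were the posterior frontal suture (PF), the sagittal suture (SAG) and the coronal suture (COR), each taken as a suture complex of bone fronts, mesenchyme, dura and periosteum, and the growth plate (GP) of the tibia. Each site was spread over 2 plates. No label ties a cell to an animal, and the study pooled animals, so each site is 1 sample, no test between sites was possible, and the spread shown is that between the plates of a site.

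A cell that divides first has to pass from G1 into S phase. Cyclin D with its kinases starts to release the E2F transcription factors, which switch on cyclin E and the replication genes. The Mcm2 to Mcm7 ring is loaded on DNA, opened into an active helicase, and followed by polymerases, the sliding clamp Pcna and the enzymes that make nucleotides and join the new strands. The mitotic genes are switched on later, and their products build the spindle, check that every chromosome is attached, and divide the cell. In the neonatal skeleton, division of progenitors supplies the bone fronts of the sutures and the columns of the growth plate.

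Of 360 cells in the tables, 325 passed a filter of 500 or more detected genes and 10000 or more reads. These were 87 PF cells (34 and 53 on plates 1 and 2), 86 SAG cells (30 and 56), 74 COR cells (16 and 58) and 78 GP cells (20 and 58). Reads of Rn45s, a ribosomal RNA precursor, were left out of all totals. SAG plate 2 stood apart from the other 7 plates, with 86.8% of its reads in Rn45s against 20.2% to 31% elsewhere, and with a median of 835 genes per cell against 2367.5 to 4008 after every cell was thinned to 100000 reads other than Rn45s. The main SAG values below are therefore also given for SAG plate 1. The median of reads other than Rn45s per cell was highest in COR (448803), then GP (369308), PF (312083) and SAG (184673). Of the genes of the 2 proteins used for the sort, Itgav (CD51) was read in 112 and Cd200 in 130 of the 295 cells that had few cycle genes, although every cell had been sorted for both proteins. In the other 30 cells they were read in 16 and 17. The 295 include the cells of SAG plate 2. Among them the genes were read in 37 and 34 of 63 cells in COR, 28 and 31 of 64 in GP, and 31 and 36 of 82 in PF.

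The promoters of the lists are shown before the values because they differ in sequence. RefSeq promoters (GRCm38.p6) were found for 41 of the 50 genes, and the 250 bases before each start were searched on both strands. E2F-like sites were taken as TTTCGCGC, TTTGGCGC, TTCGCGCC, TTGGCGCC, TTCCCGCC or TTTCCCGC, which overlap one another. The cell cycle homology region (CHR) was taken as TTTGAA or TTTAAA, and the CCAAT box as CCAAT. An E2F-like sequence was present in 9 of 24 S promoters (37.5%), in 1 of 24 G2/M promoters (4.17%) and in 3.69% of all 32851 promoters of the table. The CHR letters were present in 20.8% of S promoters, 58.3% of G2/M promoters and 25.2% of all promoters. CCAAT was present in 58.3%, 87.5% and 33.8%, and CHR and CCAAT together in 12.5%, 54.2% and 8.78%. These are matches of letters, counted and not tested, and some genes have more than 1 promoter. The following are the 130 bases that end just before the start of 4 S genes, with the E2F-like, CHR and CCAAT letters of either strand in capitals. The minichromosome gene Mcm6 (chr1:128359706-128359835, minus strand), the ribonucleotide reductase gene Rrm1 (chr7:102441565-102441694, plus strand) and Uhrf1 (chr17:56303207-56303336, plus strand) hold E2F-like letters, and Pcna (chr2:132253181-132253310, minus strand) holds CCAAT without them.
Mcm6: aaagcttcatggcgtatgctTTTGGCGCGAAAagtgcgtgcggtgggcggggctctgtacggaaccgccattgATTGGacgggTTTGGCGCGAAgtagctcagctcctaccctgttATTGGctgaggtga
Rrm1: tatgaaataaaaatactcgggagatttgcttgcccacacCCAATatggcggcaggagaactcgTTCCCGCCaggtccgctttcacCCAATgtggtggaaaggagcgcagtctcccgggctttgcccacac
Uhrf1: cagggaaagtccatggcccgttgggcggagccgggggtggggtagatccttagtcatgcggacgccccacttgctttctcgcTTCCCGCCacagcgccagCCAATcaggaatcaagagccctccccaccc
Pcna: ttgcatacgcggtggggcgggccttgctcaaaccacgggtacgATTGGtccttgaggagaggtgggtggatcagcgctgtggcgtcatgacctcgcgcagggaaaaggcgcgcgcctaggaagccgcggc
The G2/M promoters are shown in the same way for Cdc20 (chr4:118437344-118437473, minus strand), Cenpa (chr5:30666756-30666885, plus strand), Top2a (chr11:99024190-99024319, minus strand), Ube2c (chr2:164769799-164769928, plus strand) and Ccnb1 (chr13:100786487-100786616, minus strand). In the first 4 of these the CHR letters lie 18, 17, 23 and 29 bases before the start, with CCAAT boxes upstream of them and, in Cdc20, also 1 nearer to the start. Ccnb1 is the G2/M promoter that also holds E2F-like letters.
Cdc20: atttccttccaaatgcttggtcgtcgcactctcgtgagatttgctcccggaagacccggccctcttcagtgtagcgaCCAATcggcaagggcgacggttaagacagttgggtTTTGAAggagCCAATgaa
Cenpa: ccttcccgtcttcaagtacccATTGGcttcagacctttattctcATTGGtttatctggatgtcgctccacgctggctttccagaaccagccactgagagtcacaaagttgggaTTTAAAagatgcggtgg
Top2a: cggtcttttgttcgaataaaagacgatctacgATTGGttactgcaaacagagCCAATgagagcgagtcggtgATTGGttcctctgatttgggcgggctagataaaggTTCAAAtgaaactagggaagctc
Ube2c: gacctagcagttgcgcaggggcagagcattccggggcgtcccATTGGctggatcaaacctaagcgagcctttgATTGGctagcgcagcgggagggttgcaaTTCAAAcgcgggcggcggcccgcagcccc
Ccnb1: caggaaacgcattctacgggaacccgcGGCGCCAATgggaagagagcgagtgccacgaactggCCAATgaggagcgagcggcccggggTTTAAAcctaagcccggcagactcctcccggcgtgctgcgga

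Most cells had reads of few cycle genes, and a small number of cells had reads of many. Over the 48 genes of the S and G2/M lists the median was 3 genes per cell in GP, 2.5 in COR, 2 in PF and 1 in SAG, and 66 of the 325 cells had none. A cell with 10 or more of the 48 was counted as a cell with many cycle genes, and there were 30 of these (9.23%). COR held 11 of its 74 cells in this class (14.9%, exact 95% interval 7.66% to 25%) and GP 14 of 78 (17.9%, 10.2% to 28.3%). PF held 5 of 87 (5.75%, 1.89% to 12.9%). SAG held 0 of 86, which allows a share of up to 3.49% (3 cells), and its plate 1 alone held 0 of 30 (up to 10%). The intervals of the shares above 0 are Clopper-Pearson intervals, and both kinds of bound cover counting error only, since cells of a site may come from the same animals. The COR and GP intervals overlap each other and both overlap that of PF.

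The cells with many cycle genes were found on both plates of COR, GP and PF. On COR 3 of 16 and 8 of 58 cells had many cycle genes, and on GP 5 of 20 and 9 of 58. On PF 4 of the 5 cells were on plate 1, which held 34 cells, and 1 was among the 53 cells of plate 2. After thinning to equal reads the class held 5 of 70 PF cells, 0 of 80 SAG cells, 11 of 71 COR cells (15.5%) and 8 of 67 GP cells (11.9%), and COR was then above GP. The counts near the threshold were 7 cells with 8 genes, 1 with 9, 5 with 10 and 4 with 11. With 20 or more genes as the threshold the counts were 8 in COR, 4 in GP, 2 in PF and 0 in SAG, so COR was again above GP.

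**Figure D1:**
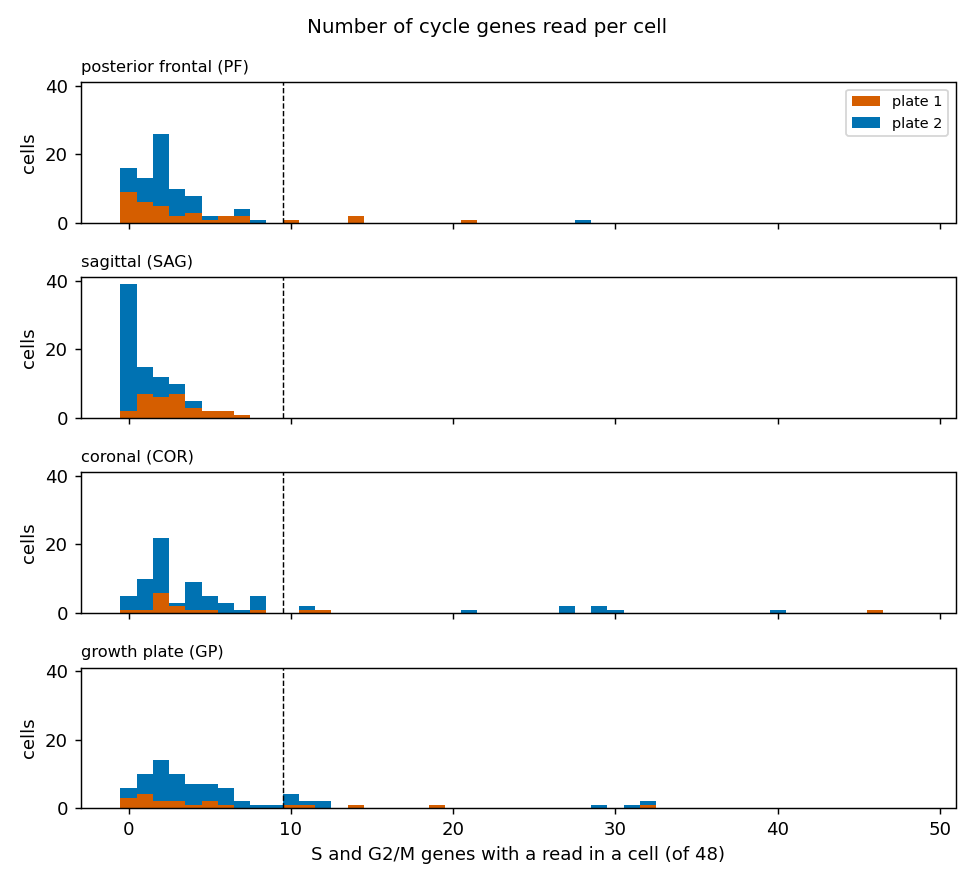
Number of cells (y axis) by the number of S and G2/M genes with a read in the cell (x axis, of 48), 1 panel per site, bars stacked by plate; the dashed line marks the threshold of 10 genes. PF reaches 28 genes, SAG stops at 7, COR reaches 46 and GP 32.

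The fullest set of cycle transcripts in any cell was that of a coronal cell on plate 1, with 46 of the 48 genes, made up of 21 of 22 S genes and 25 of 26 G2/M genes. It had 239140 reads other than Rn45s, below the COR median, and 5242 genes. The next, a coronal cell on plate 2, had 40 genes (21 S and 19 G2/M). The growth plate reached 32 genes in 2 cells, and PF reached 28 in a cell of plate 2 with 7 S and 21 G2/M genes. The highest SAG cell had 7 genes. SAG plate 2 reached 4.

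S phase genes were read in many cells and mitotic genes in few. At least 1 S gene was read in 79.3% of PF cells, 53.5% of SAG cells (27 of 30 on plate 1 and 19 of 56 on plate 2), 90.5% of COR cells and 91% of GP cells. At least 1 G2/M gene was read in 32.2% of PF cells, 16.3% of SAG cells (9 of 30 on plate 1), 40.5% of COR cells and 34.6% of GP cells. A read of a G2/M gene outside the 30 cells was also of another size. In the 30 cells the G2/M genes were read 321 times, with a median of 99 reads, and 9.03% of these had under 10 reads. In the other 295 cells they were read 109 times, with a median of 4 reads, and 57.8% had under 10 reads. The S genes differed less, with medians of 73 reads over 292 gene and cell pairs in the 30 cells and 45 reads over 581 pairs in the others. Since the 30 cells were chosen by these genes, these values describe them and are no support for the class.

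**Figure D2:**
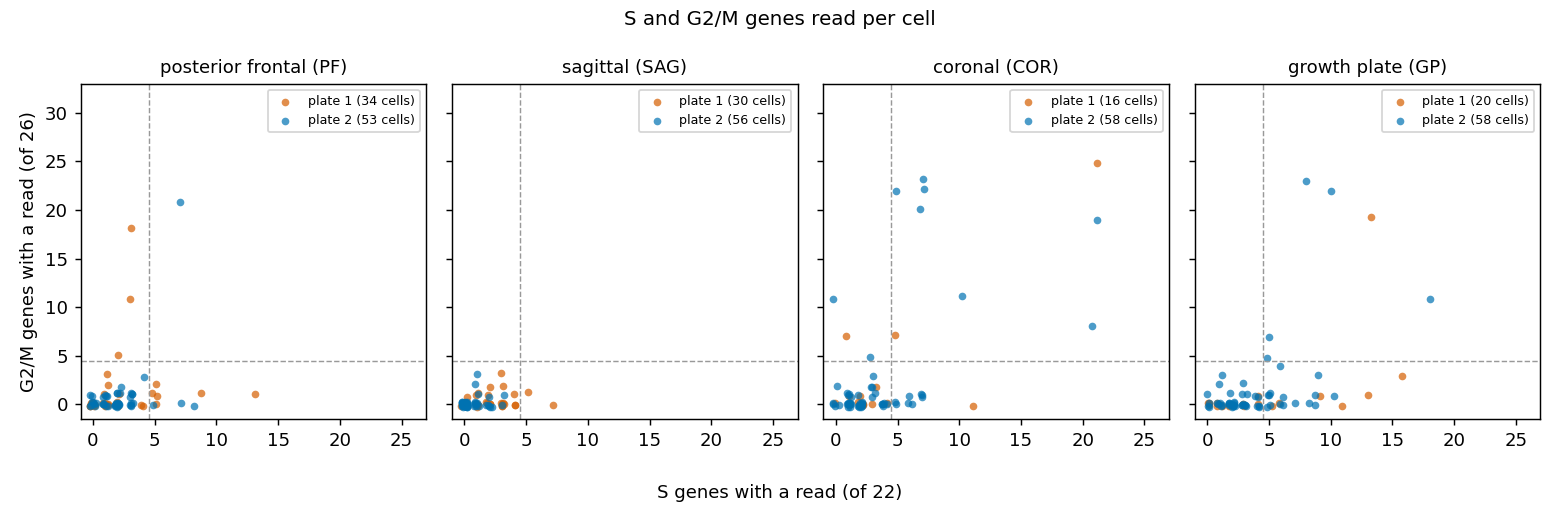
G2/M genes with a read (y axis, of 26) against S genes with a read (x axis, of 22) in each passing cell, 1 panel per site and 1 colour per plate, points shifted slightly so that they do not cover each other; dashed lines separate cells with 5 or more genes of a list. GP has 21 cells at the lower right (5 or more S genes and under 5 G2/M genes) and none at the upper left, and COR has 9 cells at the upper right.

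The balance of the lists differed between sites. Reads of 5 or more S genes were found in 27 of 78 GP cells (34.6%, 24.2% to 46.2%), 18 of 74 COR cells (24.3%, 15.1% to 35.7%), 10 of 87 PF cells (11.5%, 5.65% to 20.1%) and 2 of 86 SAG cells (2.33%, 0.283% to 8.15%). The GP interval lies above those of PF and SAG. SAG plate 1 alone gave 2 of 30 (6.67%, 0.818% to 22.1%), which lies below the GP interval and overlaps those of PF and COR. The plates of GP were close, at 7 of 20 cells and 34.5%, those of COR were at 18.75% and 25.9%, and those of PF at 17.6% and 7.55%. After thinning, GP stood at 34.3%, COR at 21.1%, PF at 11.4% and SAG at 2.5%.

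For mitosis the order was another. Reads of 5 or more G2/M genes were found in 12 of 74 COR cells (16.2%, 8.67% to 26.6%), 6 of 78 GP cells (7.69%, 2.88% to 16%), 4 of 87 PF cells (4.60%, 1.27% to 11.4%) and 0 of 86 SAG cells (up to 3.49%). COR was higher than every other site on both of its plates, at 18.75% and 15.5%, against 1 of 20 cells and 8.62% on GP, and 8.82% and 1.89% on PF. The COR interval overlaps those of GP and PF. It lies above that of SAG, but overlaps that of SAG plate 1, whose 0 of 30 cells allow a share of up to 10%. Cells with 5 or more S genes and fewer G2/M genes numbered 21 in GP, 9 in COR, 9 in PF and 2 in SAG, cells with the reverse 0, 3, 3 and 0, and cells with 5 or more of each 6, 9, 1 and 0. Thus 21 of the 27 GP cells with S genes had few mitotic ones, as had 9 of 10 in PF and 2 of 2 in SAG. In COR these were 9 of 18.

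**Figure D3:**
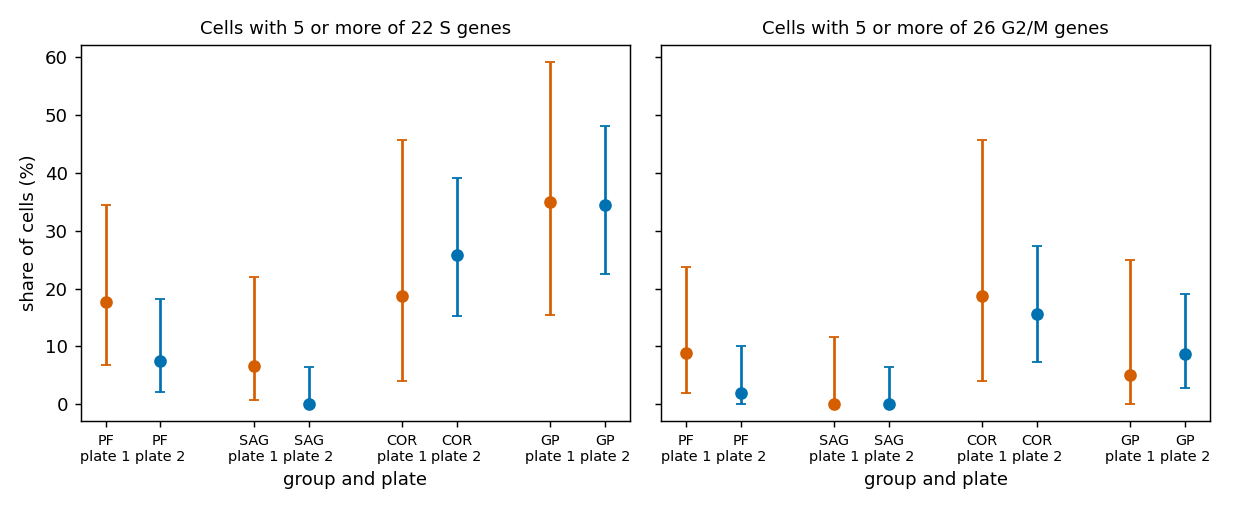
Share of cells (y axis, percent) with 5 or more S genes (left) and with 5 or more G2/M genes (right) on each plate (x axis), with exact binomial 95% intervals as bars, which cover counting error only. GP is highest on the left on both plates and COR is highest on the right on both plates; SAG plate 2 is at 0 in both panels.

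Among the 30 cells with many cycle genes, 14 had reads of more S than G2/M genes, 15 of more G2/M than S genes, and 1 of as many of each. The first kind made up 9 of 14 in GP, 3 of 11 in COR and 2 of 5 in PF. The lists differ in length. By the share of each list read, 16 cells had more of the S list and 14 more of the G2/M list. These 16 were 10 in GP, 4 in COR and 2 in PF. By summed level over all cells of a site, in CPM (reads scaled to a fixed total of reads other than Rn45s), the S list stood at 995 in GP, 835 in COR, 504 in PF and 444 in SAG (442 on plate 1), and the G2/M list at 707, 1006, 432 and 25.2 (51.2 on plate 1). The G2/M level of PF came to 78.1% from 1 cell and that of GP to 61.8% from the cell with most, against 22.9% in COR, and without those cells PF was at 97.2 and GP at 277. The G2/M level was therefore decided by 1 cell in PF and GP, and the number of cells is the firmer measure there.

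The genes that license replication origins come first in order of action. Cdc6 and Cdt1 load the helicase ring on DNA. Cdc6 was read in 3 cells, all coronal (1 on plate 1 and 2 on plate 2) and all among the 30. Cdt1 was read in 4 PF, 4 SAG (all on plate 1), 12 COR and 11 GP cells. The 30 cells gave 15.9% of its reads, the lowest share in the S list. The ring itself, Mcm2 to Mcm7, was read widely. Mcm7 was read in 17 PF, 12 SAG, 18 COR and 22 GP cells (21.2% of all) and on SAG in 6 cells of each plate. Mcm6 was read in 15 PF, 6 SAG, 20 COR and 27 GP cells (20.9% of all), and on SAG in 3 cells of each plate. Mcm4 was read in 13, 6, 17 and 21 cells, in the same order of sites. By this count all 3 were highest in GP and, with both SAG plates, lowest in SAG. By share of cells on SAG plate 1 alone, Mcm7, with 6 of 30 cells, was not below PF, with 17 of 87. Mcm6, with 3 of 30 cells there, was below every other site. For Mcm4 the SAG count is that of both plates.

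Mcm2 was read in 11 PF, 5 SAG, 14 COR and 19 GP cells, and its SAG cells were all on plate 1. Mcm3 was read in 7, 3, 15 and 11 cells, with SAG again on plate 1 only. Mcm5 was the least read of the ring, in 3, 2, 7 and 12 cells. The 6 subunits act in equal numbers in the ring, yet no cell-by-cell match can be read from these counts: of 49 cells with Mcm2 and 68 with Mcm6, 22 had both, which is 44.9% of the former and 32.4% of the latter. Cdc45 and Gins2, which turn the ring into a moving helicase, were rarer. Cdc45, which the study names among genes lower in PF in its bulk RNA-seq, was read here in 3 of 87 PF cells (3.45%), 0 of 86 SAG cells (up to 3.49%), 5 of 74 COR cells (6.76%) and 5 of 78 GP cells (6.41%), too few to separate the sites. For Cdc45 on SAG plate 1 alone, 0 of 30 cells allows up to 10%. Gins2 was read in 5 PF, 2 SAG, 5 COR and 16 GP cells, and on GP in 5 of 20 and 11 of 58, so GP was above every other plate.

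The most widely read gene of either list was a synthesis gene. Pcna, the clamp that holds the polymerase on DNA, was read in 24 of 87 PF cells (27.6%), 14 of 86 SAG cells (16.3%), 27 of 74 COR cells (36.5%) and 41 of 78 GP cells (52.6%). By plate these were 8 and 16 cells on PF, 14 and 0 on SAG, 5 and 22 on COR, and 12 and 29 on GP. All 14 SAG cells with Pcna were on plate 1, where they made up 46.7%, so the low SAG value is that of plate 2. Pcna was read in 22 of the 30 cells with many cycle genes (73.3%) and in 84 of the 295 others (28.5%), and the 30 cells gave 37.2% of its reads. The polymerase gene Pola1 was read in 7 PF, 6 SAG, 12 COR and 12 GP cells. On SAG plate 2, where 10 of the 22 S genes had no read, it was read in 5 of 56 cells. The flap nuclease gene Fen1 was read in 8, 4, 11 and 9 cells and the ligase gene Lig1 in 4, 4, 10 and 14, in the order PF, SAG, COR and GP.

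The nucleotide genes followed. Rrm1, the large subunit of ribonucleotide reductase, was read in 11 PF, 12 SAG, 16 COR and 26 GP cells (65 in all). Rrm2, its small subunit, was read in 18, 4, 16 and 13 cells. The subunits were ordered differently: Rrm2 was most frequent in COR and PF, at 21.6% and 20.7%, and Rrm1 in GP, at 33.3%. Both were read in 20 cells, which is 30.8% of the cells with Rrm1 and 39.2% of those with Rrm2. Rrm2 also leaned more on the cells with many cycle genes, which gave 76.8% of its reads against 48.8% for Rrm1. Tyms, which makes thymidylate, was read in 8, 4, 18 and 18 cells, with all 4 SAG cells on plate 1.

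The regulators of S phase entry and the chromatin genes were read less. E2f1 was read in 4 PF, 0 SAG, 7 COR and 9 GP cells. Ccne1 and Ccne2, the E cyclins, were read in 3, 1, 5 and 7 cells and in 3, 2, 7 and 8 cells. Uhrf1, which carries DNA methylation over to new strands, was read in 6, 2, 10 and 6 cells, and 5 of the 6 PF cells were on plate 1. Ezh2, the histone H3 methyltransferase of the Polycomb complex, which the study also names as lower in PF in its bulk data, was read in 12 PF (13.8%), 4 SAG (4.65%), 13 COR (17.6%) and 15 GP cells (19.2%). Its summed level was 37.9 CPM in GP, 32.1 in PF, 19 in COR and 0.988 in SAG, with 37.7% of the PF reads from 1 cell. Among the sutures, PF was thus highest by level, and between SAG and COR by share of cells. GP was above PF on both scales. The study set PF against the other sutures in bulk RNA, and it also reports RT-PCR for Ezh2 and Cdc45.

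The D cyclins were read apart from all of these. Ccnd2 was the most widely read member, in 70 PF cells (80.5%), 36 SAG cells (41.9%), 69 COR cells (93.2%) and 61 GP cells (78.2%). On SAG it was read in 21 of 30 cells of plate 1 and 15 of 56 of plate 2. Its level was even over cells, with no cell giving more than 2.07% of all its reads, and the 30 cells with many cycle genes gave 8.04%. Ccnd1 was read in 13 PF cells (14.9%), 10 SAG cells (11.6%), 29 COR cells (39.2%) and 30 GP cells (38.5%). The plates of PF differed, with 2 of 34 and 11 of 53 cells, and those of SAG held 8 of 30 and 2 of 56. Ccnd1 was read in 16 of the 30 cells with many cycle genes and in 66 of the 295 others (22.4%).

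Of the mitotic genes, Mki67, the Ki-67 antigen of dividing cells, was read in 4 PF cells (4.60%), 0 SAG cells (up to 3.49%), 12 COR cells (16.2%) and 6 GP cells (7.69%). By plate these were 2 and 2 on PF, 3 and 9 on COR, and 1 and 5 on GP. For SAG plate 1 alone, 0 of 30 cells allows up to 10%. Top2a, the topoisomerase that untangles sister chromosomes, was read in 1, 1, 8 and 7 cells. Its summed level was highest in GP, at 98 CPM against 39.4 in COR, but 77.2% of the GP reads came from 1 cell, and in PF it stood at 0.033 CPM, a level of under 3 reads. Mki67 and Top2a were read together in 10 cells, 45.5% of those with Mki67.

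The cyclins that drive mitosis showed the coronal suture highest. Ccna2 was read in 3 PF, 2 SAG, 12 COR and 5 GP cells. Ccnb1 was read in 3, 1, 9 and 5 cells, and in GP 99.6% of its reads came from 1 cell. Ccnb2 was read in 5, 2, 12 and 8 cells, which with Cenpa and Kif20a made it the most widely read of the list, at 8.31% of all cells. Among the mitotic kinases and the checkpoint genes, Plk1 was read in 6, 3, 5 and 2 cells, Aurka in 1, 0, 5 and 3, Aurkb in 1, 1, 7 and 2, Bub1 in 4, 0, 5 and 2, and Bub1b in 1, 0, 5 and 4. Plk1 was the G2/M gene with the most PF cells relative to COR. Outside the 30 cells Plk1 was read in 7 cells, with a median of 1 read.

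The genes of centromeres and spindle gave the same picture. Cenpa, the histone H3 variant that marks centromeres, was read in 7 PF, 3 SAG, 11 COR and 6 GP cells. The kinetochore genes Cenpe and Cenpf were read in 3, 0, 7 and 4 and in 3, 0, 6 and 5 cells. Birc5 (survivin), which acts with Aurkb at the centromere, was read in 5, 1, 11 and 6 cells, and 7 of the 11 cells with Aurkb also had Birc5. The spindle motor gene Kif11 was read in 3, 2, 5 and 3 cells, and Tpx2, Hmmr and Nusap1, whose products organise spindle microtubules, in 2, 0, 7 and 5, in 3, 0, 8 and 5, and in 1, 0, 3 and 4 cells. Tpx2 was the gene most confined to the 30 cells among the G2/M genes, with 99.97% of its reads there.

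Exit from mitosis and the split of the cell were last. Cdc20 directs the anaphase-promoting complex to its substrates, and Ube2c is a ubiquitin-conjugating enzyme that works with the complex. They were read in 7 PF, 1 SAG, 10 COR and 6 GP cells and in 4, 1, 6 and 3 cells. Kif20a, a kinesin of the central spindle, was read in 5, 0, 13 and 9 cells, the highest G2/M count in COR. Anln, which anchors the contractile ring, was read in 2, 0, 11 and 4 cells. Prc1, Racgap1, Kif23 and Ect2, which build the central spindle and place the ring, were read in 3, 0, 7 and 6, in 5, 1, 9 and 6, in 2, 1, 4 and 1, and in 2, 1, 6 and 2 cells. For 24 of the 26 G2/M genes the share of cells with a read was highest in COR, with Plk1 highest in PF and Nusap1 in GP. COR also had the most reads and genes per cell. After thinning, COR was highest for 24 of the 26 G2/M genes and for 9 of the 22 S genes, against 53.1% of all 10546 genes compared, and GP for 2 and 12, against 28.6%. The list counts include Cdc6, Aurka, Aurkb, Bub1b, Kif23 and Nusap1. These were each read in under 10 thinned cells and are not among the 10546 genes.

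**Figure D4:**
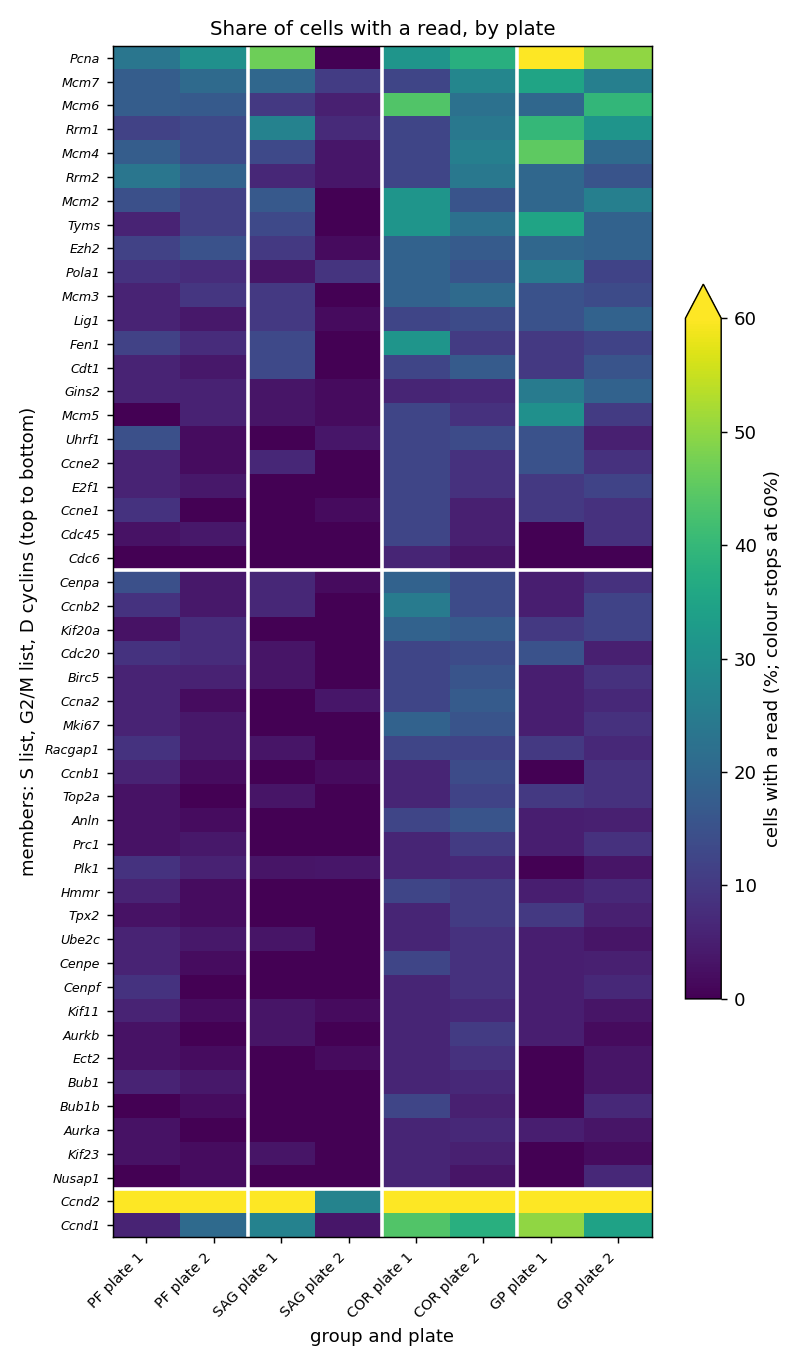
Share of cells with a read (colour, percent, stopping at 60%) for each of the 50 genes (rows, S list above, G2/M list in the middle, D cyclins below) on each of the 8 plates (columns). Ccnd2 and Pcna stand out in their lists, the G2/M rows are brightest in the COR columns, and SAG plate 2 is dark in nearly all rows.

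**Figure D5:**
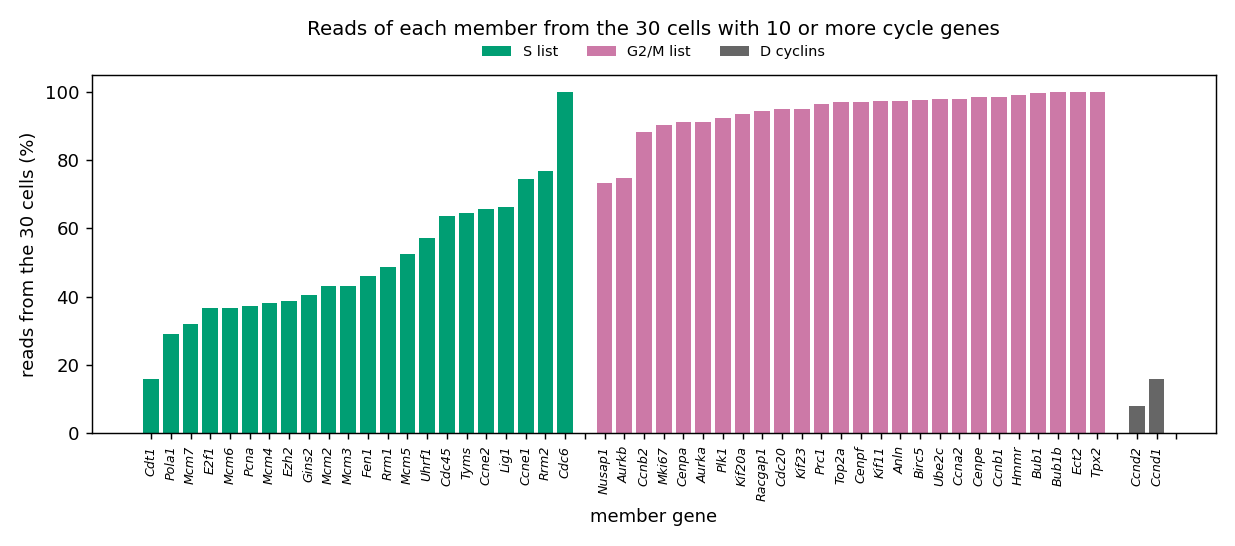
Percent of each gene's reads (y axis) that came from the 30 cells with 10 or more cycle genes, by gene (x axis) and list (colour). The G2/M genes lie between 73.3% (Nusap1) and 99.97% (Tpx2), the S genes between 15.9% (Cdt1) and 100% (Cdc6), and the D cyclins at 8.04% and 15.9%.

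The sites were then compared gene by gene with a rule and no test. A gene was called where its share of cells with a read after thinning differed by 10 percentage points or more between the sites and all 4 comparisons of their plates had the same sign. Of the 50 genes, 44 had a read in 10 or more thinned cells and were compared, among 10546 genes in all. Cdc6, Aurka, Aurkb, Bub1b, Kif23 and Nusap1 had too few cells. The share of all compared genes that met the rule is given beside each count, because the sites differ in the number of genes read per cell.

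Between PF and COR, 8 of the 44 were lower in PF, against 26.2% of all genes, and 0 were higher, against 1.01%. The 8 were Mcm3, Tyms, Top2a, Ccnb2, Kif20a, Anln, Ccnd1 and Ccnd2. Top2a was read in 0 of 70 thinned PF cells and in 11.3% of COR cells, Anln in 2.86% and 15.5%, and Ccnd1 in 15.7% and 33.8%. The median difference was -5.61 points over all 50 cycle genes and -5.53 over all compared genes. The first median includes the cycle genes with too few cells to be compared. Many cycle genes were read in few cells, so these medians do not place the list against genes in general. Between PF and GP, 8 of the 44 were lower in PF, against 16% of all genes, and 0 were higher, against 2.68%. They were Mcm5, Pcna, Gins2, Rrm1, Tyms, Lig1, Cdt1 and Ccnd1, and so 7 S genes, 1 D cyclin and no G2/M gene. Pcna was read in 31.4% of thinned PF cells and 53.7% of GP cells, and Gins2 in 7.14% and 19.4%. Here the median difference over the 50 cycle genes was -3.11 points and over all compared genes -3.18, with the same limit.

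Between COR and GP, 3 of the 44 were lower in COR, against 3.62% of all genes, and these were the S genes Pcna (36.6% and 53.7%), Gins2 (7.04% and 19.4%) and Rrm1 (21.1% and 32.8%). Ccnd2 alone was higher in COR (94.4% and 82.1%), against 13.6% of all genes. Over all compared genes, calls were more often higher in COR. The median difference was 3.80 points over the 50 cycle genes and 2.54 over all compared genes, higher in COR in each case. No G2/M gene met the rule between COR and GP, although Mki67 was read in 15.5% and 5.97% of thinned cells and Anln in 15.5% and 5.97%.

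Comparisons with SAG carry the state of its plate 2. With both plates, 22 of the 44 were lower in SAG than in COR (36.5% of all genes) and 0 were higher (1.74%), 15 were lower in SAG than in GP (23.5%) and 0 were higher (1.89%), and PF was higher than SAG for 3 (15.2%), namely Rrm2, Ezh2 and Ccnd2, and lower for 0 (3.14%). The 22 lower than in COR were 8 S genes, 12 G2/M genes and both D cyclins, whereas the 15 lower than in GP were 12 S genes, 1 G2/M gene (Kif20a) and both D cyclins. The low number of genes per cell on SAG plate 2 moved with these counts, and its part in them was not tested.

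With SAG plate 1 alone, where both comparisons with the plates of the other site had to have the same sign, 18 of the 44 were still lower in SAG than in COR, against 25% of 10353 genes, and Pcna was higher, against 9.35%. The 18 held Mki67, Top2a, Ccna2, Ccnb1, Ccnb2, Kif20a, Birc5, Cdc20, Hmmr and Anln, 10 of the 12 G2/M genes above, with Mcm3, Mcm6, Rrm2, Uhrf1, Ezh2, Pola1, Ccnd1 and Ccnd2. Mki67, Top2a, Kif20a, Birc5, Cdc20, Hmmr and Anln were read in 0 of the 25 thinned cells of the plate, which allows up to 12%, so for a gene read in 11.3% of COR cells a difference was not detectable at this number of cells. Against GP, 8 were lower in SAG plate 1 (16.2% of all genes), namely Mcm5, Mcm6, Gins2, Ezh2, E2f1, Pola1, Kif20a and Ccnd1, and 0 were higher (14.5%). PF was higher than SAG plate 1 for Rrm2 and Ezh2 (9.94%) and lower for Pcna and Cdt1 (24.6%). Pcna was read in 48% of the thinned cells of SAG plate 1, and Cdt1 in 16%, against 31.4% and 2.86% in PF.

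The 30 cells with many cycle genes were compared with other cells on further measures. The first of these, the number of genes with a read, includes the 48 genes of the rule and so depends on it in part. Because SAG held none of the 30, the comparison was made outside SAG, with 209 other cells, and within sites. The 30 cells had a median of 3896 genes with a read against 2939, which was 4211 against 3280 in COR, 3835.5 against 2938 in GP and 3046 against 2456.5 in PF. Reads other than Rn45s had medians of 438463 and 385605, and the sites did not agree in direction, with 477057 and 433647 in COR, 404814 and 354086 in GP, and 293076 and 318339 in PF. The number of cycle genes per cell went with the number of genes per cell (Pearson's r = 0.46 over the passing cells, 0.44 over the 288 thinned cells) and less with reads (r = 0.23). These points share plates and depth, and the part of RNA content or depth in the class was not tested. Col1a1 and Col3a1 were read in most cells of either kind: Col1a1 in 29 of 30 and, outside SAG, in 203 of 209 others, and Col3a1 in 28 and 189. By level, the list of osteoblast markers had medians of 32802 CPM and, in other cells, 65022 in GP, and 36653 and 70642 in COR. In PF it went the other way, at 123442 and 64866. The list of fibroblast markers had medians of 13016.5 and 30899 in GP, 24028 and 25607 in COR, and 13760 and 18675 in PF. The ranges of these cells and the others overlapped in each case. Col2a1, the cartilage collagen, was read in 3 of 30 and, outside SAG, in 29 of 209 other cells (13.9%), and the sites went different ways, with 2 of 14 and 19 of 64 in GP, 1 of 11 and 2 of 63 in COR, and 0 of 5 and 8 of 82 in PF. Acta2, the smooth muscle actin, was read in 13 of 30 (43.3%) and, outside SAG, in 61 of 209 others (29.2%), with 7 of 11 and 22 of 63 in COR, 3 of 5 and 27 of 82 in PF, and 3 of 14 and 12 of 64 in GP.

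In PF the 5 cells all had reads of Sp7, a transcription factor of bone-forming cells, against 26 of the 82 other PF cells, and 4 had reads of Ibsp, a bone matrix gene, against 23 of 82. In GP these genes were read in 2 of 14 and 1 of 14 cells with many cycle genes, against 16 and 17 of 64 others. In COR they were read in 7 of 11 and 2 of 11, against 37 and 17 of 63 others, so the sites differed. The 4 PF cells with Ibsp were all on plate 1. The lists of endothelial and blood cell genes had a median of 0 genes with a read in the 30 cells and in the others, and no cell of the 30 had more than 2 genes of the former or 1 of the latter. Reads of Xist together with a Y-linked gene, as a well with a female and a male cell would give, were found in 0 of the 30 and 1 of the 295, so no such pair of cells was seen among them. A pair of the same sex would not show.

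Genes outside the 50 that followed the number of cycle genes per cell most closely were Pbk (r = 0.86), 2810417H13Rik (0.85), Cenpm (0.77), Cdca3 (0.75), Ncapg (0.75), Cdca8 (0.74), Tk1 (0.74), Depdc1a (0.73), Mxd3 (0.73) and Spc24 (0.73). The measure was Pearson's r of log2(CPM + 1) over 288 thinned cells for 10502 genes. Pbk was read in 13 of the 30 cells and in 1 of the other 295, and Depdc1a in 10 and 0. Spc24 was less confined, at 18 and 14. Of these 10 genes, 4 were on further lists of 27 replication and 26 mitosis genes or of 8 cycle brakes, none of them among the 50 members, and so were 16 of the 50 most like genes.

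The further lists were counted by the same rule. Of the 27 replication genes, 20 could be compared. In PF 2 were lower than in COR (Rfc2 and Dut, against 26.2% of all genes) and 4 lower than in GP (Dut, Slbp, Chaf1b and Rpa2, against 16%), and none was higher than in either. In COR 2 were lower than in GP (against 3.62%) and 1 higher (against 13.6%). With both SAG plates, 5 were lower in SAG than in COR (36.5%), 10 lower than in GP (23.5%) and 4 lower than in PF (15.2%). Of the 26 mitotic genes, 15 could be compared. In PF 1 was lower than in COR (Cks2, 26.2%) and 3 lower than in GP (Cdk1, Smc4 and Gas2l3, 16%), and none was called between COR and GP or between PF and SAG. With both SAG plates, 7 were lower in SAG than in COR (36.5%) and 3 lower than in GP (23.5%). The SAG counts carry the limit of its plate 2. The most widely read of all further genes were Slbp, which binds histone mRNA, in 98 cells (30.2%), and the cycle brakes Cdkn1c in 227 (69.8%) and Cdkn1a in 148 (45.5%). Cdkn1a (p21) was read in 14 of the 30 cells with many cycle genes and in 134 of the other 295. Cdkn1c (p57) was read in 21 and 206, so neither brake was missing from the cells with many cycle genes. The 295 include all SAG cells, and SAG held none of the 30. In GP Cdkn1a was read in 7 of 14 and 17 of 64 others, and in PF in 3 of 5 and 19 of 82. In COR it went the other way, with 4 of 11 and 34 of 63. Cdkn1c was read in 10 of 14 and 57 of 64 in GP and in 7 of 11 and 46 of 63 in COR. In PF it was read in 4 of 5 and 61 of 82. Rbl1 (p107), a pocket protein that binds E2F factors, was read in 8 of the 30 and in 17 of the 295.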

How the data were processed

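The authors deposited raw read counts, per symbol and cell, in 8 tables, 1 per plate, with the same 24015 symbols. The authors' processing notes name STAR 2.5.3a, HTSeq, Seurat 2.3.0 and R 3.4.4, and the genome build mm9; the gene annotation, the use of strand and the counting options are not given in the sources used here. Without strand, a gene and an overlapping antisense gene cannot be told apart. No molecular identifiers were used, so counts are of reads after PCR, and intervals cover counting error only. The labels and the study's methods differ on RNA preparation and sequencer.

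Groups came from titles and source names. For 1 SAG cell the description names a PF plate, and it was counted as SAG. Each group counted as 1 sample, so no p-value was computed, and replicate numbers count the cells of a group and pair nothing. No 2 passing cells had identical counts, and 0 columns of values were left without a cell.

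Cells with at least 500 genes and 10000 reads were kept (325 of 360). Shares have exact binomial and summed levels exact Poisson 95% intervals. CPM was computed over totals without Rn45s. Thinning drew 100000 reads other than Rn45s per cell with a fixed seed and left out 37 shallower cells (17 PF, 6 SAG, 3 COR and 11 GP). A limit of a 0 is 3 counts over the number of cells. The call rule was tested on simulated data of PF and COR, where it called some unchanged genes, so a call is a description. How often it finds a difference in the genes of the lists was not tested. Promoters came from RefSeq (GRCm38.p6). Python 3.11.15, numpy 2.4.6, pandas 2.3.3, scipy 1.17.1, matplotlib 3.10.9, R 4.3.3 and edgeR 4.0.16 (for TMM factors only) were used.

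The members and lists were chosen with earlier results of these data known. All 50 members were to be accounted for, with values for Mki67, Top2a, Ccnb1, Pcna, Mcm2 to Mcm7, Cdc45, Ezh2, the D cyclins, the 5 most widely read of each list and every member called. Outside them the 10 genes most like the count of members and the 3 most widely read further cycle genes were to be named, and the further genes named beside the call counts and the marker genes were chosen after their values were seen. Alternatives were the cell filter, thinning, the thresholds, the scaling, single plates and the leaving out of cells.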

Additional observations from a re-analysis of the deposited data

Results flagged for a closer look

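Member reads also occurred in the cells that did not pass the filter, which no comparison used. In these 35 cells the S and G2/M genes had 19 reads in all, 8 in GP, 6 in COR, 3 in SAG and 2 in PF. They lay in 8 cells, with at most 4 genes in a cell, and 0 cells had 10 or more. This was noted because it lies outside the measured comparisons, and no control cells exist to set it against.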

How the results depend on the processing

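Of 256 values recomputed under another choice, 198 stayed within the plate spread, counting interval or range of counts that the main value allows, and 58 moved. The order of the sites turned in places: COR (10.8%) was above GP with 15 or 20 genes as the threshold of many, and PF was above COR in summed S level on plate 1 alone. With 5 in place of 10 genes as the threshold, cells with many cycle genes made up 39.7% of GP, 33.8% of COR, 16.1% of PF and 5.81% of SAG cells, and in GP 6.41% with 15 and 5.13% with 20. On plate 2 alone PF held 1.89%, and SAG held 0 cells with 5 or more S genes. With 3 in place of 5 S genes GP stood at 57.7%, COR at 44.6%, PF at 27.6% and SAG at 17.4%. The summed S level became 759 CPM in PF, 714 in COR and 1603 in GP on plate 1 alone; with Rn45s in the totals 87.7 in SAG and 615 in COR; without the cell with most reads 386 in SAG and 675 in COR; and in SAG 409 with TMM factors, 426 with no cell filter and 450 with at least 1500 genes and 50000 reads, a filter that left 28 SAG cells and 0 of its plate 2. The summed G2/M level became 418 in PF, 648 in COR and 604 in GP on plate 1 alone; 316 in PF and 491 in GP with Rn45s in the totals; 97.2 in PF and 277 in GP without the cell with most reads; and 471 in PF under the stricter filter. With a difference of 20 points the genes called in either direction numbered 869 (PF and SAG), 653 (PF and COR), 397 (PF and GP), 2471 (SAG and COR), 1515 (SAG and GP) and 355 (COR and GP), and the members called 1, 0, 1, 2, 5 and 0. With SAG plate 1 alone 3580 genes were called between PF and SAG, and 8 members between SAG and GP. The cause of these moves was not tested. Leaving out the cell whose labels disagree moved none of the 20 values recomputed without it. No paired analysis was possible because no result comes from a test and plate numbers do not pair the sites. The state of plate 2 and the number of cells both limit SAG. There 0 of 86 cells allows up to 3.49%, and 0 of the 30 cells of plate 1 alone up to 10%. In PF and GP 1 cell decides the G2/M levels.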
